A study of Drosophila melanogaster with 26 samples.

Results

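The response to *jasper* RNAi was compared between male S2 and female Kc cells, gene by gene, as the log2 fold-change in S2 cells minus the log2 fold-change in Kc cells. All control and *jasper* RNAi samples of batches 1 and 2 were used, which are 16 of the 26 RNA-seq samples of the series, with 4 samples each of S2 cells upon *jasper* RNAi, S2 cells upon control RNAi, Kc cells upon *jasper* RNAi and Kc cells upon control RNAi. S2-DRSC and Kc167 are established *Drosophila melanogaster* lines, and each stands here for its sex as a single line, so that sex and every other difference between the lines cannot be told apart. Cells were given 10 µg/mL double-stranded RNA, left for 3 days, split and treated again, and left for 4 more days, and their total RNA was depleted of rRNA and sequenced with a strand-specific kit. The labels do not name the double-stranded RNA or the depletion kit of a sample. They do not say that samples of a group were separate cultures either, so that p-values measure the spread between these samples only.

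JASPer is a protein with a PWWP domain, which reads methylation of histone H3 at lysine 36 in the bodies of active genes. It forms a complex with the kinase JIL-1, which phosphorylates histone H3 at serine 10 in interphase and counteracts the spread of heterochromatin. The complex is known to be enriched on the X chromosome of males, where the dosage compensation complex raises transcription of the single X. The study depleted JASPer in a male and a female line, and the comparison asks which genes answered differently in the 2 lines.

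Each sample had between 4313711 and 17419281 reads on genes in their own orientation, and the group medians were between 9644993.5 and 11879446.5. The lines carried the marks of their labels, except for *lncRNA:roX1*. *lncRNA:roX2*, an RNA of the male dosage compensation complex, was between 723 and 903 CPM (reads of the gene scaled to a common library size) in S2 samples. *msl-2*, another male marker, was at 49.2 to 61.6 CPM in S2 samples against 6.07 to 13.2 CPM in Kc samples. The male marker *lncRNA:roX1* overlapped between the lines, at 0.569 to 5.97 CPM in S2 samples and 0.922 to 2.91 CPM in Kc samples. *Sxl*, the female switch gene, was between 81.1 and 88.9 CPM in S2 samples, against 198 to 274 CPM in Kc samples. Both lines expressed all 10 hemocyte markers looked at, whose sum was higher in S2 cells (11200 to 16900 CPM) than in Kc cells (2370 to 3730 CPM). Members differed, since *Hml* was at 14.7 to 45.7 CPM in S2 cells against 1300 to 2290 CPM in Kc cells, and *srp* overlapped between the lines (160 to 192 CPM in S2 cells, 151 to 256 CPM in Kc cells). One library stood apart. Kc *jasper* replicate 4 held 2.75% of the S2 level over 18 genes read almost only in S2 cells, whereas the other Kc samples held 0.113% to 0.289%. It also had 21.3 CPM of *lncRNA:roX2* against 0.616 to 2.94 CPM in the other Kc samples. Each result below was therefore also computed without it. The *jasper* samples of both lines further fell into 2 kinds. S2 replicates 5 and 9 and Kc replicates 2 and 4 had at least 1040 CPM on the strand of *Jasper*, while S2 replicates 4 and 8 had 59.4 and 107 CPM and Kc replicates 1 and 3 had 15.1 and 75.7 CPM. The methods of the study list 2 double-stranded RNAs against *jasper*, and the labels do not say whether the kinds received different ones. In S2 cells, r across genes between the log2 ratios of pairs to their same-numbered controls was 0.736 for pairs 4 and 8, 0.595 for pairs 5 and 9, and 0.533 to 0.582 for the others. In Kc cells the log2 ratios to the same-numbered controls went along with this across genes, with r of 0.67 between pairs 2 and 4, r of 0.49 between pairs 1 and 3, and r between 0.108 and 0.291 for the other Kc pairs. Genes are not independent replicates, and pairs of one batch share nothing but that batch by the labels. Without Kc *jasper* replicates 2 and 4 the calls given below were 251 lower and 145 higher, and without S2 *jasper* replicates 5 and 9 as well they were 154 and 71.

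Of 8249 genes with reads in all 16 samples, 142 had a lower response in S2 than in Kc cells (1.72% of the genes tested) and 61 had a higher response (0.739%), together 203 genes or 2.46%, at an adjusted p below 0.05 in edgeR's quasi-likelihood test. The lower ones differed by more, and they were also read less deeply, with a median average log2 CPM of 5.245 against 6.11 for the higher ones. Their median difference was 1.01 on the log2 scale, from 0.27 to 3.25, and 72 of 142 differed by at least 1, while among the 61 higher ones the median was 0.47, from 0.30 to 1.79, and 13 differed by at least 1. Without Kc *jasper* replicate 4, 135 genes (1.64%) were lower and 56 (0.679%) higher, of which 121 and 45 were among those above. The log2 ratios of the 4 S2 pairs lay entirely below those of the 4 Kc pairs in 141 of the 142 lower genes, with *Ance-2* as the exception, and this was true of 6.12% of all genes tested. They lay entirely above them in 59 of the 61 higher genes, with *CG33914* and *CG7458* as the exceptions, and this was true of 5.38% of all genes. The counts depended on single libraries. Without S2 control replicate 8, 94 genes were lower and 27 higher, and without S2 *jasper* replicate 8 the counts were 100 and 29. The count of higher genes was also 36 without S2 control replicate 4, 38 without S2 control replicate 9 and 101 without Kc *jasper* replicate 1. In every one of the 16 fits that left out 1 sample, 81 of the lower and 23 of the higher genes were called.

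**Figure D1:**
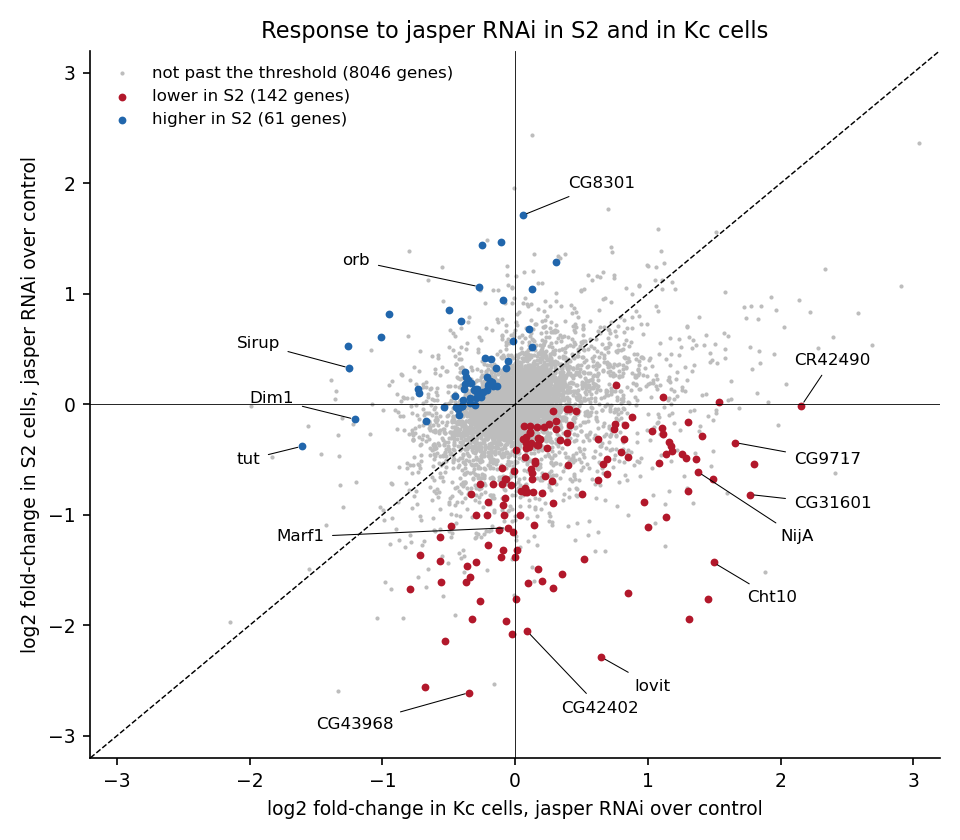
Log2 fold-change upon *jasper* RNAi over control in S2 cells (vertical axis) against that in Kc cells (horizontal axis), 1 point per gene, with red points for the 142 genes lower and blue points for the 61 genes higher in S2 cells, and the dashed line where both lines answered alike. Most red points lie below the horizontal zero line and right of the vertical one; 1 gene lies outside the axes, which end at 3.2.

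The lower genes were mostly genes that fell in S2 cells, genes that rose in Kc cells, or both. In 100 of the 142 the fitted log2 fold-change was negative in S2 cells and positive in Kc cells, in 39 it was negative in both and in 3 (*CG10801*, *CG17124* and *CG4133*) positive in both. The median was -0.64 in S2 cells and 0.17 in Kc cells, and the larger change was in S2 cells for 93 genes and in Kc cells for 49. Within the same fit, 81 passed the threshold in S2 cells only and 36 in Kc cells only. Another 11 passed it in both with opposite signs, 11 in both with the same sign and 3 (*CG5001*, *Gli* and *fuss*) in neither. The fit shared its spread between the lines, while the biological coefficient of variation fitted per line was 6.57% for S2 and 12.8% for Kc cells. Passing in one line only is therefore not measured alike in both. Of the 61 higher genes, 45 had a positive fold-change in S2 cells and a negative one in Kc cells, with a median of 0.17 in S2 cells and -0.30 in Kc cells, and here the larger change was more often in Kc cells (40 genes) than in S2 cells (21 genes). Protein-coding genes made up 128 of the lower genes and all 61 higher ones. The others among the lower were 7 non-coding RNA genes, 3 pseudogenes and 4 genes that the annotation used here does not hold. In bulk RNA, fewer cells with a transcript and less of it per cell cannot be told apart.

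Among the 142 lower genes, 11 passed the threshold in both lines with opposite signs. *NijA* (FBgn0036101, 3L from 10694360 to 10696877), which encodes the cell-surface protein Ninjurin A, had 44.6, 35.6, 49.2 and 43.3 CPM in S2 cells upon *jasper* RNAi, against 61.2, 66.3, 66.0 and 71.4 CPM in control S2 cells. In Kc cells it had 15.5, 16.1, 15.3 and 13.1 CPM upon *jasper* RNAi, against 5.197, 6.55, 5.61 and 5.54 CPM in control cells. In both lines the 2 groups were fully apart, with the lower values upon *jasper* RNAi in S2 cells and the higher ones upon *jasper* RNAi in Kc cells. The responses differed by -1.99 (standard error 0.14, adjusted p = 1.1e-06), with -0.61 in S2 and 1.38 in Kc cells, and *NijA* was past the threshold under every alternative tried. *Cht10* (FBgn0250907, 2L from 22999574 to 23025915), a chitinase gene, had 3.50, 2.49, 1.896 and 2.13 CPM in S2 cells upon *jasper* RNAi, against 6.78, 8.35, 5.66 and 6.19 CPM in control cells. Its Kc values were 16.1, 26.3, 10.5 and 24.6 CPM upon *jasper* RNAi, against 4.67, 12.6, 3.55 and 6.53 CPM in control cells. The S2 groups were apart, whereas in Kc cells control replicate 2 lay above *jasper* replicate 3. The difference was -2.93 (standard error 0.49, adjusted p = 0.0042).

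*lovit* (FBgn0267429, 3L from 25236940 to 25670980), which encodes a histamine transporter, was low in both lines. It had 0.519, 0.429, 0.443 and 0.305 CPM in S2 cells upon *jasper* RNAi, against 1.84, 2.55, 2.35 and 1.67 CPM in control cells, and 7.81, 7.60, 8.11 and 10.7 CPM in Kc cells upon *jasper* RNAi, against 5.02, 5.82, 4.70 and 5.91 CPM in control cells. The *jasper* samples were all below the controls in S2 cells and all above them in Kc cells. The lowest library held 3 reads, and the difference was -2.94 (standard error 0.31, adjusted p = 1.7e-04). *CG31601* (2L from 22040727 to 22043877) had 59.3, 55.3, 39.6 and 38.3 CPM in S2 cells upon *jasper* RNAi, against 93.7, 88.8, 75.5 and 76.4 CPM in control cells. Kc cells had 1.23, 1.23, 1.31 and 3.52 CPM upon *jasper* RNAi, against 0.352, 0.392, 0.344 and 0.986 CPM in control cells. The groups were apart in both lines, and the highest Kc value came from replicate 4, the library with reads of S2 genes. The difference was -2.59 (standard error 0.34, adjusted p = 9.8e-04) with that library and -2.24 (adjusted p = 0.0013) without it. *Kal1*, the fly counterpart of the human anosmin gene, and *sli*, which encodes the axon guidance ligand Slit, moved the same way and were chosen for mention after their values were seen. *Kal1* had 124 to 153 CPM in S2 cells upon *jasper* RNAi against 176 to 197 CPM in control cells, and 2.57 to 11.04 CPM in Kc cells upon *jasper* RNAi against 1.15 to 3.94 CPM in control cells, where the groups overlapped. Its difference was -1.77 (standard error 0.19, adjusted p = 1.7e-04). *sli* had 18.5 to 30.1 CPM in S2 cells upon *jasper* RNAi against 34.3 to 58.9 CPM in control cells, and 51.6 to 69.9 CPM in Kc cells upon *jasper* RNAi against 34.5 to 47.7 CPM in control cells. Its difference was -1.32 (standard error 0.15, adjusted p = 3.3e-04).

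**Figure D2:**
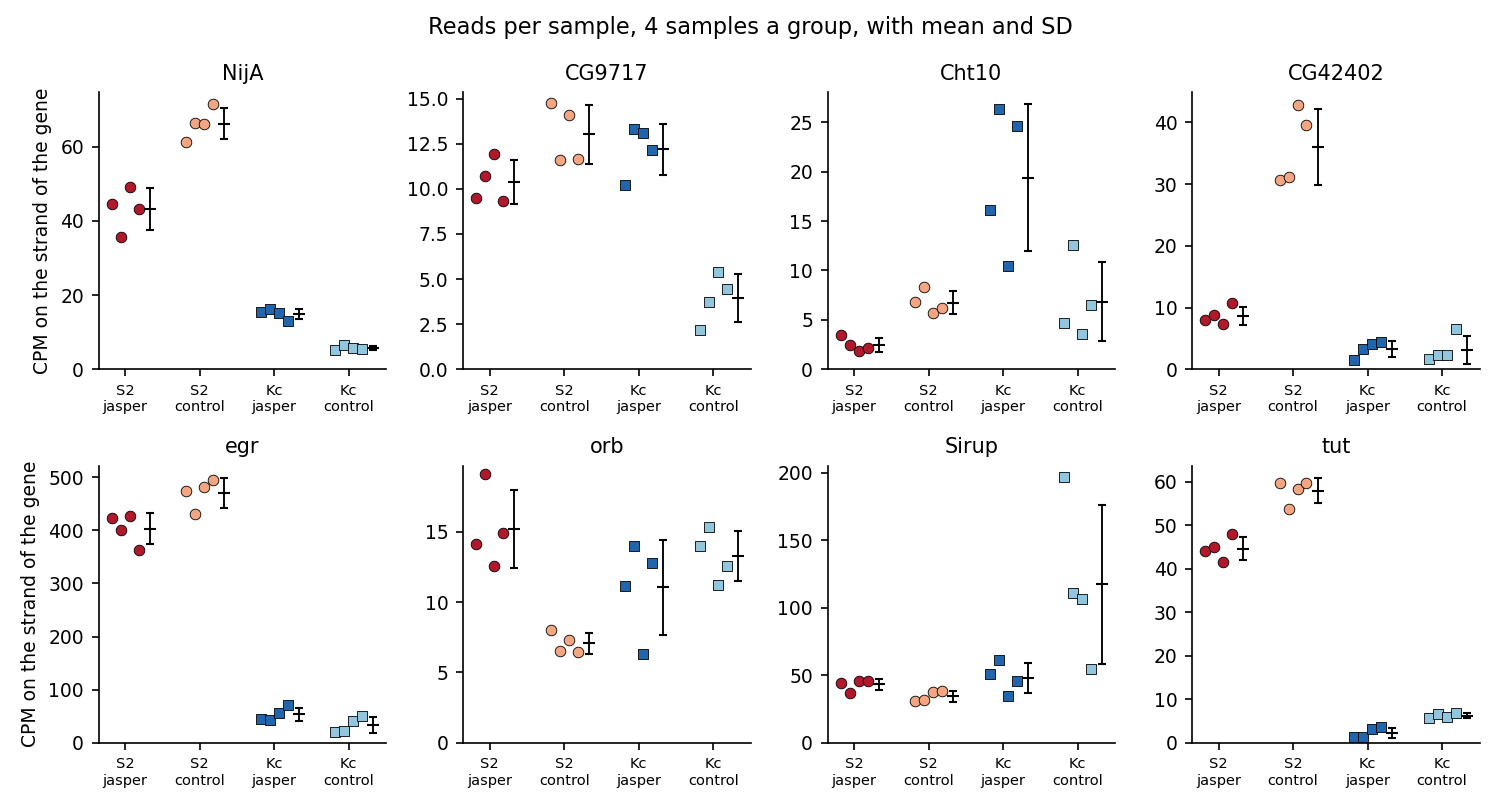
CPM on the strand of the gene in each of the 16 samples for *NijA*, *CG9717*, *Cht10*, *CG42402*, *egr*, *orb*, *Sirup* and *tut*, 1 panel per gene with its own axis; points are samples and the bars the mean and SD of 4 samples, in the order S2 *jasper*, S2 control, Kc *jasper*, Kc control. *NijA* moved in opposite directions in the 2 lines, *CG42402* and *orb* passed the threshold in S2 cells only, and *CG9717*, *egr* and *Sirup* in Kc cells only. The S2 groups of *egr* were also apart, with the lower values upon *jasper* RNAi.

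The largest group, 81 of the 142 lower genes, passed the threshold in S2 cells only. *CG42402* (FBgn0259821, 3R from 4077939 to 4104326) had 7.92, 8.84, 7.27 and 10.7 CPM in S2 cells upon *jasper* RNAi, against 30.7, 31.1, 42.8 and 39.5 CPM in control cells. Kc cells had 1.48, 3.25, 4.05 and 4.37 CPM upon *jasper* RNAi, against 1.59, 2.296, 2.292 and 6.53 CPM in control cells. The S2 groups were far apart and the Kc groups overlapped, and the responses differed by -2.15 (standard error 0.37, adjusted p = 0.0054). *CG43968* (3L from 23784231 to 23787405) had 0.26, 0.343, 0.632 and 0.508 CPM in S2 cells upon *jasper* RNAi, against 2.88, 5.33, 2.23 and 2.62 CPM in control cells. In Kc cells, where it was more abundant, it had 38.9, 31.5, 24.6 and 19.4 CPM upon *jasper* RNAi, against 38.8, 50.2, 27.0 and 29.1 CPM in control cells. Its difference was -2.26 (standard error 0.37, adjusted p = 0.0041), with an overlap in Kc cells only, and its lowest library held 2 reads.

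*CR14033* and *Cyp12a5*, which encodes a mitochondrial cytochrome P450, followed the same course at lower levels. *CR14033* had 3.76, 3.69, 2.78 and 3.25 CPM in S2 cells upon *jasper* RNAi, against 12.02, 15.3, 14.8 and 14.8 CPM in control cells, and between 2.70 and 4.53 CPM in Kc cells upon *jasper* RNAi against 2.38 to 5.91 CPM in control cells. The difference was -2.05 (standard error 0.30, adjusted p = 0.0021). *Cyp12a5* had 2.40 to 5.45 CPM in S2 cells upon *jasper* RNAi, against 10.7 to 12.3 CPM in control cells, and 2.08 to 4.89 CPM in Kc cells upon *jasper* RNAi, against 1.67 to 4.31 CPM in control cells. Its difference was -1.95 (standard error 0.30, adjusted p = 0.0026).

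A further gene, *Marf1*, shared the smallest adjusted p of the comparison with *NijA* and was chosen for that after its values were seen. The gene (2L from 22308755 to 22368796), whose product lowers transcript levels in the germ line, had 194.7, 209, 191 and 218 CPM in S2 cells upon *jasper* RNAi, against 439.9, 439, 445 and 438 CPM in control cells. Kc cells had 1076, 1053, 845 and 814 CPM upon *jasper* RNAi, against 1119, 1136, 841 and 854 CPM in control cells. The 4 S2 *jasper* samples stood well below their controls, and the Kc groups overlapped, with the 2 batches apart in both Kc groups. The responses differed by -1.06 (standard error 0.074, adjusted p = 1.1e-06). *SoYb*, a gene of the piRNA pathway also chosen afterwards, had 23.9 to 30.9 CPM in S2 cells upon *jasper* RNAi against 54.3 to 66.3 CPM in control cells, and 48.9 to 74.5 CPM in Kc cells upon *jasper* RNAi against 50.6 to 76.7 CPM in control cells. Its difference was -1.02 (standard error 0.11, adjusted p = 1.7e-04).

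A further 36 of the lower genes passed the threshold in Kc cells only. *CG9717* (FBgn0039789, 3R from 30584020 to 30587302) had 9.47, 10.7, 11.95 and 9.35 CPM in S2 cells upon *jasper* RNAi, against 14.7, 11.6, 14.1 and 11.7 CPM in control cells. Its Kc values were 10.2, 13.3, 13.1 and 12.1 CPM upon *jasper* RNAi, against 2.202, 3.75, 5.39 and 4.44 CPM in control cells. Every Kc *jasper* sample was above every Kc control, while the S2 groups overlapped. The difference was -2.01 (standard error 0.25, adjusted p = 5.8e-04). *KCNQ*, which encodes a voltage-gated potassium channel, had 0.909, 0.945, 0.316 and 0.914 CPM in S2 cells upon *jasper* RNAi against 1.40, 1.86, 0.953 and 1.19 CPM in control cells, and 10.8, 9.31, 7.87 and 11.4 CPM in Kc cells upon *jasper* RNAi against 3.44, 4.48, 2.87 and 5.17 CPM in control cells. All Kc *jasper* samples were well above the Kc controls, and the S2 *jasper* samples lay just below the S2 controls, with as few as 5 reads. The difference was -2.08 (standard error 0.41, adjusted p = 0.012), but in counts that ignore strand it was -0.72 and missed the threshold (adjusted p = 0.177). *CG6357* passed it in both lines, with 2.34 to 5.32 CPM in S2 cells upon *jasper* RNAi against 6.04 to 10.7 CPM in control cells, and 16.3 to 29.2 CPM in Kc cells upon *jasper* RNAi against 6.61 to 14.7 CPM in control cells. Its difference was -2.11 (standard error 0.34, adjusted p = 0.0034).

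*egr* (FBgn0033483, 2R from 10078366 to 10084210), which encodes the tumour necrosis factor Eiger, a ligand upstream of JNK signalling, had 424, 399.9, 426 and 364 CPM in S2 cells upon *jasper* RNAi, against 475, 431, 482 and 494 CPM in control cells. Kc cells had 44.4, 43.3, 56.5 and 70.4 CPM upon *jasper* RNAi, against 20.8, 22.1, 40.8 and 50.8 CPM in control cells. All S2 *jasper* samples were below all S2 controls, although the change in S2 cells did not pass the threshold (adjusted p = 0.19 in edgeR's test). Within each batch of Kc cells both *jasper* samples were above both controls, although batch 2 was higher throughout. The difference was -0.97 (standard error 0.15, adjusted p = 0.0029). *vir-1*, a gene induced by virus infection and chosen here after its values were seen, had 668 to 767 CPM in S2 cells upon *jasper* RNAi against 733 to 807 CPM in control cells, and 408 to 688 CPM in Kc cells upon *jasper* RNAi against 245 to 303 CPM in control cells. Its difference was -1.003 (standard error 0.15, adjusted p = 0.0028).

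For a few of these genes the call leaned on very few Kc reads or on Kc *jasper* replicate 4. *CR42490* had 24.5, 24.7, 23.4 and 25.9 CPM in S2 cells upon *jasper* RNAi against 23.4, 23.7, 28.5 and 23.1 CPM in control cells, and 1.11, 1.72, 0.596 and 2.18 CPM in Kc cells upon *jasper* RNAi against 0.352, 0.224, 0.458 and 0.246 CPM in control cells. The difference was -2.17 (standard error 0.41, adjusted p = 0.0097) with, and -1.89 (adjusted p = 0.016) without, that library. *Syx4*, an X-linked gene for a syntaxin of the membrane fusion machinery, had 72.8, 61.1, 86.9 and 77.8 CPM in S2 cells upon *jasper* RNAi against 105, 107, 126 and 139 CPM in control cells. Its Kc values were 0.553, 0.919, 0.715 and 3.27 CPM upon *jasper* RNAi against 0.529, 0.448, 0.229 and 0.37 CPM in control cells, so that one library stood far above the others. Its difference of -2.16 (standard error 0.50, adjusted p = 0.030) was -1.43 (adjusted p = 0.038) without this library, and missed the threshold in 6 of the other fits that left out 1 sample, with adjusted p of up to 0.0933.

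The genes with a lower response in S2 cells were often genes whose level differed between the lines. In the *jil-1* RNAi libraries, which took no part in the choice of these genes, 26 of the 142 (18.3%) were at least 4-fold higher in S2 than in Kc cells and 24 (16.9%) at least 4-fold lower, against 4.36% and 6.06% of all genes tested. Of these 26 and 24, 21 and 24 were also called without Kc *jasper* replicate 4. Among the 61 higher genes, 3 (4.92%) were at least 4-fold higher in S2 cells and 8 (13.1%) at least 4-fold lower. These shares are descriptions, and no test was made of them.

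Of the genes with a higher response in S2 cells, *orb* (FBgn0004882, 3R from 23260610 to 23280856), which encodes an RNA-binding protein that regulates translation in the germ line, changed in S2 cells. It had 14.2, 19.1, 12.6 and 14.9 CPM in S2 cells upon *jasper* RNAi, against 8.04, 6.49, 7.31 and 6.43 CPM in control cells, and 11.1, 13.97, 6.32 and 12.7 CPM in Kc cells upon *jasper* RNAi, against 14.01, 15.3, 11.2 and 12.6 CPM in control cells. The S2 groups were apart and the Kc groups overlapped. The difference was 1.33 (standard error 0.25, adjusted p = 0.0096). *CG4733* passed the threshold in both lines with opposite signs. It had 4.02, 3.95, 4.87 and 4.47 CPM in S2 cells upon *jasper* RNAi against 2.28, 2.32, 2.54 and 2.38 CPM in control cells, and 15.1, 12.4, 10.1 and 11.2 CPM in Kc cells upon *jasper* RNAi against 18.2, 18.3, 16.6 and 15.8 CPM in control cells. Neither line showed an overlap, and the difference was 1.35 (standard error 0.17, adjusted p = 7.2e-04). *Ids*, which encodes the lysosomal enzyme iduronate 2-sulfatase, had 7.13 to 7.72 CPM in S2 cells upon *jasper* RNAi against 3.43 to 5.80 CPM in control cells, and 359 to 439 CPM in Kc cells upon *jasper* RNAi against 398 to 642 CPM in control cells. Its difference was 1.16 (standard error 0.23, adjusted p = 0.013), and it missed the threshold without S2 control replicate 8 (adjusted p = 0.0909).

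*CG8301*, *CG10738* and *CG8547* were further genes with a higher response whose transcripts were low in S2 cells and far more abundant in Kc cells. *CG8301* had 1.82, 3.26, 1.96 and 4.27 CPM in S2 cells upon *jasper* RNAi against 0.737, 0.696, 1.02 and 0.714 CPM in control cells, and 300.4 to 371 CPM in Kc cells upon *jasper* RNAi against 282 to 366 CPM in control cells. Its difference was 1.65 (standard error 0.34, adjusted p = 0.015) and missed the threshold without S2 control replicate 4 (adjusted p = 0.0607) or 8 (0.0546). *CG10738* had 3.01 to 3.41 CPM in S2 cells upon *jasper* RNAi against 0.696 to 2.38 CPM in control cells, and 35.6 to 43.5 CPM in Kc cells upon *jasper* RNAi against 38.3 to 43.8 CPM in control cells, with a difference of 1.58 (standard error 0.26, adjusted p = 0.0038). *CG8547* had 1.93 to 4.05 CPM in S2 cells upon *jasper* RNAi against 0.295 to 1.90 CPM in control cells, with a difference of 1.69 (standard error 0.38, adjusted p = 0.025) that missed the threshold in 4 of the fits that left out 1 sample.

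*Sirup*, *tut*, *bgcn* and *Dim1* had their larger change in Kc cells. *Sirup* (FBgn0031971, 2L from 7998869 to 7999676), which encodes an assembly factor of succinate dehydrogenase, had 44.4, 36.9, 46.0 and 45.6 CPM in S2 cells upon *jasper* RNAi, against 30.7, 31.5, 37.2 and 38.6 CPM in control cells. Kc cells had 50.7, 61.2, 34.6 and 45.7 CPM upon *jasper* RNAi, against 197, 111, 106 and 54.9 CPM in control cells. The Kc controls spread widely, with replicate 4 below *jasper* replicate 2, and within each batch the controls were above the *jasper* samples. The difference was 1.58 (standard error 0.28, adjusted p = 0.0076). *tut* (FBgn0052364, 3L from 8209577 to 8210743), a partner of Bam in germ-line differentiation, had 44.1, 45.1, 41.5 and 48.0 CPM in S2 cells upon *jasper* RNAi, against 59.9, 53.8, 58.4 and 59.7 CPM in control cells, and 1.29, 1.35, 3.10 and 3.52 CPM in Kc cells upon *jasper* RNAi, against 5.64, 6.61, 5.96 and 6.78 CPM in control cells. It fell in both lines, and more in Kc cells. The difference was 1.23 (standard error 0.23, adjusted p = 0.0094) with, and 1.43 without, Kc *jasper* replicate 4. *bgcn*, which encodes another partner of Bam, had 1.56, 1.46, 1.01 and 2.95 CPM in S2 cells upon *jasper* RNAi against 1.25, 0.928, 1.02 and 0.952 CPM in control cells, and 62.5, 80.7, 81.1 and 72.4 CPM in Kc cells upon *jasper* RNAi against 139, 163, 142 and 151 CPM in control cells. The Kc groups were well apart and the S2 groups, where the lowest library held 4 reads, overlapped. Its difference was 1.62 (standard error 0.37, adjusted p = 0.027), which missed the threshold in 6 of the fits that left out 1 sample (adjusted p of up to 0.148, without S2 control replicate 8). *Dim1* had 18.3 to 21.3 CPM in S2 cells upon *jasper* RNAi against 19.8 to 26.0 CPM in control cells, and 2.52 to 4.37 CPM in Kc cells upon *jasper* RNAi against 7.39 to 9.07 CPM in control cells, with a difference of 1.07 (standard error 0.20, adjusted p = 0.0097).

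Among called genes with an average log2 CPM of at least 2 and no overlap between S2 and Kc pairs, to which naming was limited, the 12 largest positive differences ended with *CG9801* (1.03, standard error 0.24, adjusted p = 0.028) and *Acer* (0.99, standard error 0.23, adjusted p = 0.033), which encodes a protein related to angiotensin-converting enzyme. *Acer* had 7.27 to 8.84 CPM in S2 cells upon *jasper* RNAi against 2.86 to 3.94 CPM in control cells, and 6.91 to 13.5 CPM in Kc cells upon *jasper* RNAi against 5.39 to 13.6 CPM in control cells. It missed the threshold in 9 of the 16 fits that left out 1 sample, among them that without Kc *jasper* replicate 4 (adjusted p = 0.0518), and *CG9801* in 6 of them (adjusted p of up to 0.118).

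By chromosome, 27 of 1398 X-linked genes tested were lower (1.93%) and 4 higher (0.286%) in S2 cells, and 109 of 6586 genes of the large autosomal arms were lower (1.66%) and 57 higher (0.865%). The counts of lower X genes were 15 without S2 *jasper* replicate 8 and 13 without S2 control replicate 8. The difference on the X was small and spread over many genes. Its median over all X genes was -0.10, against 0.03 over autosomal genes, and 69.2% of X genes had a negative value, against 48.2% of all genes tested. In the 4 S2 pairs the median log2 ratio of X genes minus that of autosomal genes was -0.123, -0.127, -0.123 and -0.0994. In the 4 Kc pairs it was -0.0187, 0.0597, 0.0263 and 0.00907. All S2 pairs were thus below all Kc pairs. Without Kc *jasper* replicate 4 the X median was -0.099, and 23 X genes were lower and 2 higher.

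**Figure D3:**
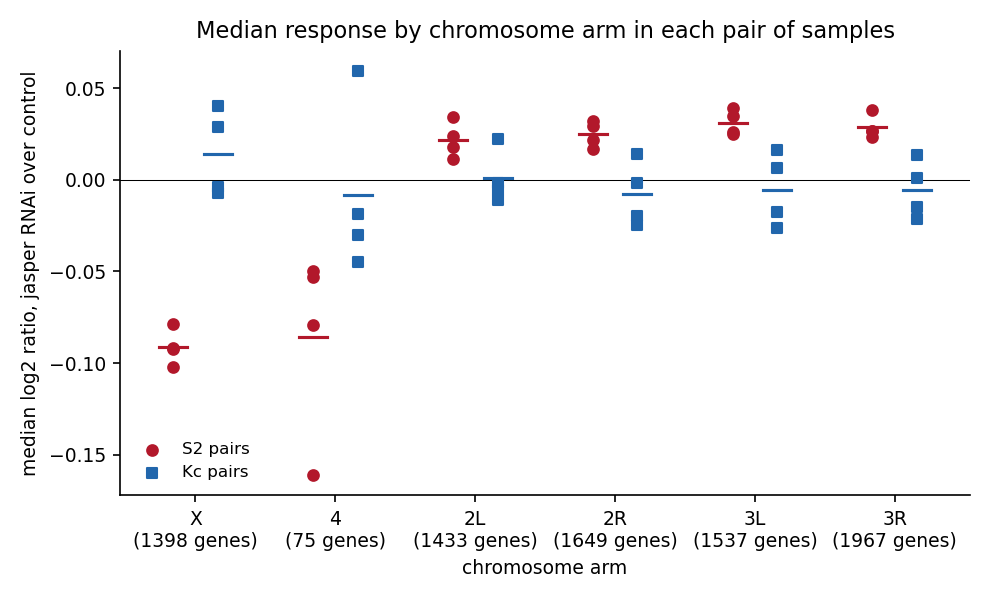
Median log2 ratio of *jasper* RNAi over control per chromosome arm in each of the 4 S2 pairs (red circles) and 4 Kc pairs (blue squares) of same-numbered samples, with the mean of the 4 as a bar and the number of genes tested under each arm. On the X every S2 pair lies below every Kc pair, and on 3L, 3R and 2R every S2 pair lies above every Kc pair. Scaling used all genes tested, so that each arm is seen relative to the rest.

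The 6 X-linked genes with the smallest p among those within the same limits had differences between -0.55 and -0.38. *Fim* (FBgn0024238, X from 17285704 to 17301929), which encodes the actin-bundling protein fimbrin, had 369, 364, 416 and 385 CPM in S2 cells upon *jasper* RNAi, against 458, 479, 516 and 536 CPM in control cells. Kc cells had 272, 245, 242 and 239 CPM upon *jasper* RNAi, against 228, 253, 188 and 219 CPM in control cells. The S2 groups were apart, the Kc groups overlapped, and the difference was -0.55 (standard error 0.088, adjusted p = 0.0034). *meso18E* had 92.4 to 108 CPM in S2 cells upon *jasper* RNAi against 121 to 136 CPM in control cells, and 130 to 137 CPM in Kc cells upon *jasper* RNAi against 111 to 129 CPM in control cells (difference -0.49, standard error 0.074, adjusted p = 0.0026). *CG4789* (-0.47), *CG1998* (-0.45) and *CAH3* (-0.38), a carbonic anhydrase gene, likewise fell in S2 cells. *CG1998* fell by 0.72 in S2 cells and also fell by 0.27 in Kc cells. *Abca3*, a gene for a lipid transporter of the ABC family, was the exception among the 6. It had 108, 112, 102 and 98.1 CPM in S2 cells upon *jasper* RNAi against 109.5, 103, 109 and 110.0 CPM in control cells, where the groups overlapped, and 89.4 to 97.0 CPM in Kc cells upon *jasper* RNAi against 67.0 to 74.4 CPM in control cells, with a difference of -0.43 (standard error 0.077, adjusted p = 0.0068).

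The 27 lower X genes ranged from -3.25 to -0.26, and 11 of them differed by less than 0.5. The lowest value was that of *na*, named here for it, whose lowest library held 1 read. It missed the threshold without Kc *jasper* replicate 4 (adjusted p = 0.0501 in edgeR's test). In 23 the fold-change was negative in S2 and positive in Kc cells, and in 17 the change in S2 cells was the larger one. The 4 higher X genes, named here because they are few, were *rdgB* (0.59), which encodes a phosphatidylinositol transfer protein, *Pde9* (0.39), a phosphodiesterase gene, *CG5541* (0.44) and *brv3* (1.77). *rdgB* had 65.2 to 75.9 CPM in S2 cells upon *jasper* RNAi against 50.2 to 55.7 CPM in control cells, and 48.1 to 63.8 CPM in Kc cells upon *jasper* RNAi against 51.4 to 70.1 CPM in control cells (adjusted p = 0.013). *CG5541* (adjusted p = 0.0634) and *brv3* (0.0501) missed the threshold without Kc *jasper* replicate 4. Of the 16 fits that left out 1 sample, *Pde9* missed it in 9, *CG5541* in 12 and *brv3* in 8, and between 1 and 6 X genes were higher across these fits.

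On the fourth chromosome 2 of 75 genes tested were lower and none higher, with a median of -0.099. The difference to the autosomal arms was -0.11, -0.0777, -0.191 and -0.0705 in the 4 S2 pairs and -0.0445, -0.0253, 0.057 and -0.00229 in the 4 Kc pairs, so that all S2 pairs were below all Kc pairs here as well. *fuss*, which encodes a regulator of the Ski/Sno family, had 19.5, 20.4, 20.5 and 22.4 CPM in S2 cells upon *jasper* RNAi against 26.0, 28.5, 26.9 and 30.0 CPM in control cells, and 0.738, 1.35, 1.55 and 2.06 CPM in Kc cells upon *jasper* RNAi against 0.529, 0.896, 0.115 and 0.493 CPM in control cells. Its difference of -1.60 (standard error 0.40, adjusted p = 0.048) rested on a Kc library with 1 read. It was not past the threshold without Kc *jasper* replicate 4 (adjusted p = 0.0994), nor in 13 of the other 15 fits that left out 1 sample. *CG33521*, the other gene, had 0.443 to 0.779 CPM in S2 cells upon *jasper* RNAi against 0.952 to 1.91 CPM in control cells, and 3.07 to 6.37 CPM in Kc cells upon *jasper* RNAi against 2.55 to 5.67 CPM in control cells. Its difference was -1.89 (standard error 0.46, adjusted p = 0.042), missed in 12 of the 16 such fits, with adjusted p of up to 0.182.

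Gene lists were then looked at by function, each beside the median of 0.01 over all genes tested. The counts stand against 1.72% of all genes tested lower and 0.739% higher. Counts at an unadjusted p below 0.05 in edgeR's test stand against 1364 of all 8249 genes tested. Lists for ribosome biogenesis, DNA replication, mitosis, the respiratory chain and mitochondrial ribosomal proteins had positive medians, with few single calls. Those for cytosolic ribosomal proteins (80 tested) and tRNA synthetases (17 tested) had medians of -0.012 and -0.026. Of 23 genes for nucleolar proteins and ribosome biogenesis, 3 were higher and none lower, and the median was 0.23. The median ratios of the S2 pairs were between -0.019 and 0.112 and those of the Kc pairs between -0.265 and -0.0946, with no overlap. Among single genes tested, 11.5% had no overlap in either direction. *Polr1B*, a subunit gene of RNA polymerase I, had 93.3 to 102 CPM in S2 cells upon *jasper* RNAi against 85.1 to 90.7 CPM in control cells, and 111 to 119 CPM in Kc cells upon *jasper* RNAi against 122 to 135 CPM in control cells, with a difference of 0.33 (standard error 0.070, adjusted p = 0.018). *NHP2* and *Nop56*, genes for proteins of small nucleolar ribonucleoproteins, differed by 0.38 (adjusted p = 0.021) and 0.40 (adjusted p = 0.039). The 3 genes were not called without S2 control replicate 8 (adjusted p of 0.0628, 0.0742 and 0.136) or S2 *jasper* replicate 8 (0.0533, 0.0619 and 0.0978), and *Nop56* was not called in 13 of the 16 fits that left out 1 sample.

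Of 35 DNA replication genes, 1 was higher and none lower, with a median of 0.21, but the S2 pairs (-0.0088 to 0.114) overlapped the Kc pairs (-0.253 to 0.025). That gene was *PolD1*, for the catalytic subunit of DNA polymerase delta, with a difference of 0.36 (standard error 0.089, adjusted p = 0.042) that missed the threshold in 11 of the 16 fits that left out 1 sample, among them that without Kc *jasper* replicate 4 (adjusted p = 0.0678). Of 36 mitosis genes 1 was higher and none lower, with a median of 0.15. It was *stg*, the Cdc25 phosphatase gene that drives entry into mitosis, with 219.5, 244, 250.5 and 250.1 CPM in S2 cells upon *jasper* RNAi against 136, 186, 160.3 and 171 CPM in control cells. In Kc cells *stg* had 70.6, 79.8, 72.7 and 92.1 CPM upon *jasper* RNAi against 78.4, 68.0, 85.3 and 87.6 CPM in control cells. It rose in S2 cells with no overlap and did not separate in Kc cells. The difference was 0.58 (standard error 0.13, adjusted p = 0.027), and 8 of the fits that left out 1 sample did not call it, with adjusted p of up to 0.0874.

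Of 68 respiratory chain genes 1 was higher and none lower (median 0.12). Of 72 genes for mitochondrial ribosomal proteins none was called either way by edgeR, DESeq2 or voom. Their median was 0.11, and 0.070 without Kc *jasper* replicate 4. Of these 72, 11 had an unadjusted p below 0.05, all of them higher, against 1364 of all 8249 genes tested in either direction. The respiratory chain gene was *ATPsynC*, for the membrane ring of ATP synthase. Its difference was 0.38 (standard error 0.092, adjusted p = 0.042) and missed the threshold in 11 of these 16 fits, again with that without Kc *jasper* replicate 4 (adjusted p = 0.0634). The 18 heat shock protein genes had the largest median, 0.89, and none was called by edgeR, DESeq2 or voom, with 4 at an unadjusted p below 0.05. The pair medians of the list were 0.255, -0.0774, -0.0703 and -0.171 in S2 cells, against -1.92, -0.188, -0.0389 and -0.273 in Kc cells. The median leaned on 1 control sample, since it was 0.22 without Kc control replicate 1 and 0.73 without Kc *jasper* replicate 1. Of 80 genes for cytosolic ribosomal proteins 1 was lower, the X-linked *RpS14a* (-0.37, adjusted p = 0.022), whose reads cannot be told with certainty from those of its near-identical copy *RpS14b*. It was not called in 4 of the 16 fits (adjusted p of up to 0.0661).

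**Figure D4:**
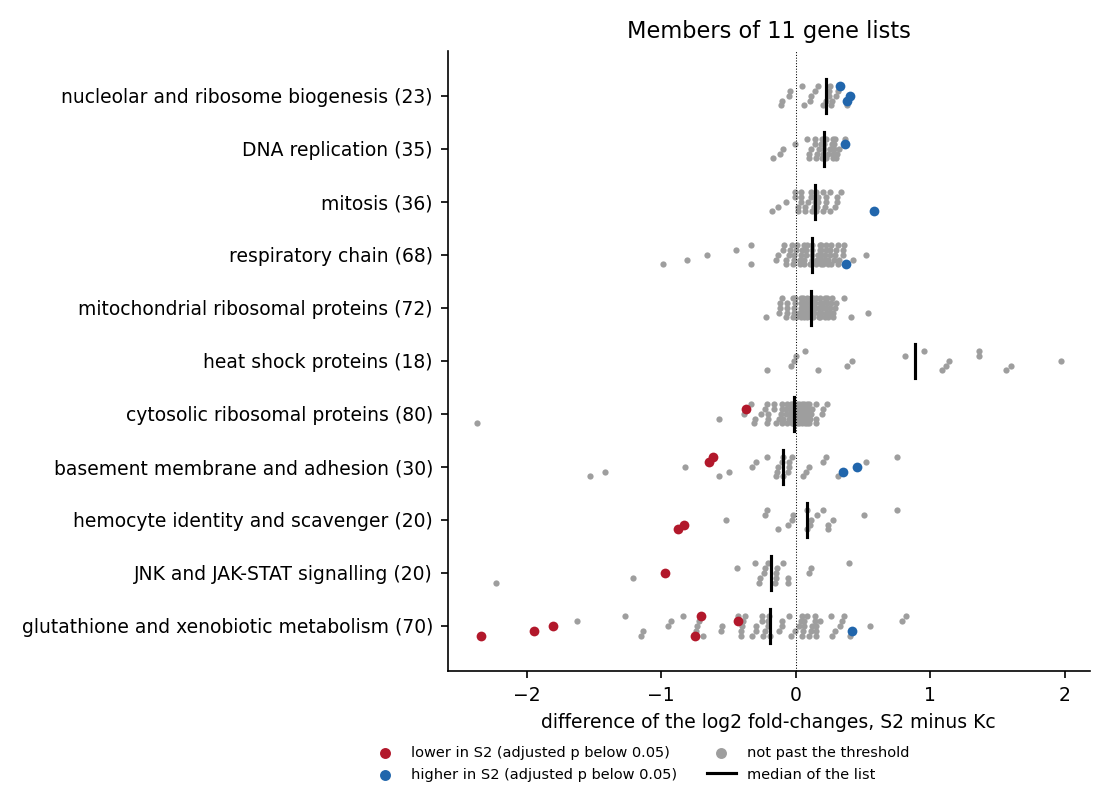
Difference of the log2 fold-changes, S2 minus Kc, for the members of 11 gene lists, with the number of members tested in brackets; red and blue points passed the threshold, grey points did not, and the bar is the median of the list. The medians of the lists from the top down to heat shock proteins lie right of 0, and the glutathione and xenobiotic list at the bottom holds 6 red points and 1 blue point.

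Genes for glutathione and xenobiotic metabolism had a negative median of -0.19, with 6 of 70 lower and 1 higher, where 1.72% of all genes tested were lower and 0.739% higher. The lower ones were the cytochrome P450 genes *Cyp9h1* (-2.34), *Cyp12a5* (-1.95) and *Cyp6a14* (-1.81), the glutathione S-transferase genes *GstE3* (-0.75) and *GstE7* (-0.70), and *Gclc* (-0.43), for the catalytic subunit of glutamate-cysteine ligase. *Cyp9h1*, *Cyp6a14* and *Gclc* are named to complete this count after their values were seen, and *Gclc* missed the threshold without Kc *jasper* replicate 4 (adjusted p = 0.0652). *Cyp9h1* and *Cyp6a14* were below the average log2 CPM of 2 used for naming, with as few as 7 and 8 reads in a sample. *Cyp9h1* passed the threshold in Kc cells only, where it rose by 1.80, against -0.54 in S2 cells. *GstE7* had 26.6, 26.1, 26.0 and 27.3 CPM in S2 cells upon *jasper* RNAi against 47.8, 41.3, 44.3 and 41.4 CPM in control cells, and 40.9, 34.3, 45.5 and 41.2 CPM in Kc cells upon *jasper* RNAi against 41.3, 35.8, 44.6 and 43.7 CPM in control cells. It fell in S2 cells in every sample and the Kc groups overlapped (standard error 0.11, adjusted p = 0.0026). *GstE3* had 28.3 to 45.3 CPM in S2 cells upon *jasper* RNAi against 52.2 to 64.3 CPM in control cells, and was not called without S2 control replicate 4 (adjusted p = 0.0521) or 8 (0.0658). *GstE12*, of the same family, went the other way. It had 41.6 to 44.4 CPM in S2 cells upon *jasper* RNAi against 42.1 to 45.5 CPM in control cells, and 72.7 to 79.9 CPM in Kc cells upon *jasper* RNAi against 96.4 to 113 CPM in control cells, with a difference of 0.42 (standard error 0.081, adjusted p = 0.011).

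Hemocyte, matrix and adhesion genes were divided. Of 20 hemocyte and scavenger genes 2 were lower and none higher, with a median of 0.085, which was 0.24 without Kc *jasper* replicate 4. *drpr*, the engulfment receptor Draper, had 122, 152, 87.2 and 128 CPM in S2 cells upon *jasper* RNAi against 191, 182, 206 and 181 CPM in control cells, and 105, 93.8, 106 and 108 CPM in Kc cells upon *jasper* RNAi against 88.4, 92.1, 79.4 and 92.5 CPM in control cells. Both lines had separate groups, in opposite directions, although only the change in S2 cells passed the threshold. The difference was -0.87 (standard error 0.16, adjusted p = 0.0097). *PPO3*, a prophenoloxidase gene, had 35.7, 43.7, 29.1 and 32.5 CPM in S2 cells upon *jasper* RNAi against 68.0, 61.9, 56.6 and 54.0 CPM in control cells, and 21.5 to 26.7 CPM in Kc cells upon *jasper* RNAi against 21.7 to 25.7 CPM in control cells. The difference was -0.83 (standard error 0.13, adjusted p = 0.0026). The summed level of the 10 hemocyte markers was 13500 to 16900 CPM in S2 cells upon *jasper* RNAi against 11200 to 14500 CPM in control cells, and 2370 to 3300 CPM in Kc cells upon *jasper* RNAi against 2920 to 3730 CPM in control cells, and its part in these differences was not tested. Most of the sum in S2 cells came from *Pxn*, *Col4a1* and *vkg*. Other members did not share its direction, such as *Sr-CI*, in S2 cells upon *jasper* RNAi at 367 to 394 CPM against 403 to 502 CPM in control cells, and *NimC1*, at 40.1 to 55.3 CPM against 52.4 to 60.7 CPM.

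Of 30 genes for basement membrane and adhesion 2 were lower and 2 higher, with a median of -0.095. *by*, the tensin gene, had 21.2, 21.5, 24.0 and 21.0 CPM in S2 cells upon *jasper* RNAi against 32.8, 35.5, 36.6 and 36.2 CPM in control cells, and 25.7 to 32.0 CPM in Kc cells upon *jasper* RNAi against 26.8 to 34.2 CPM in control cells. Its difference was -0.61 (standard error 0.12, adjusted p = 0.0097). *rhea*, the gene for talin, which binds integrins as tensin does, moved in the opposite sense. It had 312, 305, 200.4 and 213 CPM in S2 cells upon *jasper* RNAi against 250.4, 243, 192 and 173 CPM in control cells, where batch 1 was higher than batch 2 in both groups, and 368, 367, 362 and 373 CPM in Kc cells upon *jasper* RNAi against 456, 396, 433 and 416 CPM in control cells. Within each S2 batch the *jasper* samples were above the controls, and in Kc cells all were below them. The difference was 0.46 (standard error 0.081, adjusted p = 0.0065). *Mmp1*, a matrix metalloproteinase gene, was lower (-0.64, adjusted p = 0.023) and *LanB2*, a laminin chain gene, higher (0.35, adjusted p = 0.040). *Mmp1* was not called without Kc control replicate 3 (adjusted p = 0.0558) or S2 control replicate 9 (0.0526), and *LanB2* in 12 of the 16 fits that left out 1 sample. *Tig*, the gene for the matrix protein tiggrin, chosen after its values were seen, had 948 to 1187 CPM in S2 cells upon *jasper* RNAi against 1056 to 1263 CPM in control cells, and 190.1 to 234 CPM in Kc cells upon *jasper* RNAi against 313 to 367 CPM in control cells, with a difference of 0.51 (standard error 0.094, adjusted p = 0.0081).

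Of 20 genes of JNK and JAK-STAT signalling only *egr* was called, and the median was -0.18. Of the 24 tested genes on the small RNA pathway list, which does not hold *SoYb* or *nxf2* (-0.60, adjusted p = 0.0028, named after its value was seen), 1 was lower, *aub*, which encodes a Piwi protein, with 12.6 to 18.9 CPM in S2 cells upon *jasper* RNAi against 18.1 to 23.1 CPM in control cells, and 184 to 229 CPM in Kc cells upon *jasper* RNAi against 165 to 238 CPM in control cells. Its difference was -0.48 (standard error 0.10, adjusted p = 0.019), and it was not called without S2 control replicate 8 (adjusted p = 0.0605) or S2 *jasper* replicate 8 (0.0597). With *bgcn* higher and *aub* lower, 2 of 5 germ-line markers tested were called. In the lists closest to the JASPer and JIL-1 complex no gene was called in edgeR's test. These were dosage compensation (8 tested), sex determination (9), heterochromatin proteins (16) and the H3K36 and H3S10 pathway (12). In this order 1, 0, 1 and 2 genes had an unadjusted p below 0.05, against 1364 of all 8249 genes tested. DESeq2 called 1 gene of the last list and none of the other 3, and voom called none of the 4. The 25 Polycomb group and 10 telomere capping genes had no call either, with 2 and 0 at an unadjusted p below 0.05, nor did they with DESeq2 or voom. The telomere capping list had a median of 0.12. Its S2 pairs (0.0126 to 0.0364) lay above its Kc pairs (-0.115 to -0.0439) without overlap, as in the ribosome biogenesis list. Of the 36 lists looked at, only these and the 1-gene list of *Sxl* had no overlap. Among single genes tested 11.5% had none in either direction, and no test was made of the lists. Among markers of other cells, the summed level of 4 neuron markers was 53.2 to 177 CPM in Kc cells upon *jasper* RNAi against 41.1 to 68.3 CPM in control cells. This was due to *brp*, the active-zone protein Bruchpilot, at 21.6, 102, 25.4 and 138 CPM in Kc cells upon *jasper* RNAi against 19.8 to 33.6 CPM in control cells, so that Kc *jasper* replicates 2 and 4 stood apart again.

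Reads on the target could not be used to compare the depth of the knockdown. The study shows representative western blots of both lines, and reports that JIL-1 protein was lost upon *jasper* RNAi. Reads on the strand of *Jasper* came to 59.4, 1101, 107 and 1638 CPM in S2 cells upon *jasper* RNAi against 137, 125, 132 and 162 CPM in control cells, and to 15.1, 1971, 75.7 and 1040 CPM in Kc cells upon *jasper* RNAi against 90.1, 84.7, 93.4 and 94.7 CPM in control cells. On this strand only 4 of the 8 *jasper* samples were below their controls, and the other 4 were far above them. The files do not tell reads of the mRNA from reads of the added RNA, and the difference between the lines was -0.68 (standard error 1.51, adjusted p = 0.88). *JIL-1*, the gene of the partner kinase, had 83.8, 66.3, 94.1 and 80.0 CPM in S2 cells upon *jasper* RNAi against 63.8, 77.7, 78.9 and 92.1 CPM in control cells, and 49.5, 62.4, 45.4 and 65.9 CPM in Kc cells upon *jasper* RNAi against 49.9, 49.1, 43.1 and 52.7 CPM in control cells. The groups overlapped in both lines, and the responses differed by -0.13 (standard error 0.17, adjusted p = 0.78).

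The difference between the lines upon *jasper* RNAi is set beside that upon *jil-1* RNAi for some of these genes. Both were computed against the same control samples, so that the values are not independent and no agreement is read from them. For *Cht10* it was -2.93 upon *jasper* RNAi (-3.06 upon *jil-1* RNAi), for *CG31601* -2.59 (-2.48), for *CG42402* -2.15 (-3.40) and for *NijA* -1.99 (-1.21). For *lovit* it was -2.94 (-1.77), for *Cyp12a5* -1.95 (-2.60) and for *Marf1* -1.06 (-1.25). Values nearer to 0 upon *jil-1* RNAi were those of *CG9717*, -2.01 (-0.61), *CR14033*, -2.05 (-0.63), and *egr*, -0.97 (-0.21). Among genes with a higher response, *bgcn* had 1.62 (2.17), *CG8301* 1.65 (2.32), *Acer* 0.99 (1.18), *Sirup* 1.58 (0.88) and *tut* 1.23 (0.69). The sign differed for *by* (-0.61 upon *jasper* RNAi, 0.50 upon *jil-1* RNAi), *PPO3* (-0.83, 0.12), *GstE3* (-0.75, 0.23) and *stg* (0.58, -0.085). Standard errors upon *jil-1* RNAi were 0.13, 0.098, 0.14 and 0.13 in this order. The sign upon *jil-1* RNAi is therefore not certain for *PPO3*, *GstE3* and *stg*. The differences between the 2 treatments were not tested.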

How the data were processed

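RNA-seq was done on S2 and Kc cells; 16 samples of 2 batches per line were used here, and the 8 *jil-1* RNAi samples of these batches served only where stated. The authors aligned read pairs to the release 6 genome (BDGP6) with STAR 2.6.0, kept uniquely aligned pairs and deposited raw counts per gene for 17489 genes, without normalization. Only reads in the orientation of the gene entered here. RSEM 1.3.0 is named in the processing notes, and its values were not used here. Of the read pairs, 45.3% to 67.8% were unmapped, and among aligned pairs 9.51% to 15.1% fell on no single gene; both were left out of library sizes.

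Genes with more than 0 reads in all 16 samples were tested with edgeR 4.0.16 (TMM scaling, quasi-likelihood F-test, two-sided) in R 4.3.3, with batch nested in line and a *jasper* term for each line (6 coefficients, 10 residual degrees of freedom). The contrast was S2 minus Kc, and Benjamini-Hochberg adjustment ran over all 8249 genes, with a threshold of 0.05. A standard error is the log2 difference divided by the square root of F. The fitted biological coefficient of variation was 10.1% over all samples, 6.57% for S2 cells and 12.8% for Kc cells. The scripts were tested on simulated data. Over 24 pairs of samples of 1 group, chi-square per degree of freedom was 3.75 to 68.9, so no library was held to be a duplicate. Positions and gene types came from Ensembl release 115. Line-restricted genes had at least 50 CPM in one line and under 0.5% of it in the other. Log2 ratios of same-numbered samples used a prior count of 0.5.

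Genes named were *Jasper* and *JIL-1* and, among called genes with an average log2 CPM of at least 2 and S2 pairs all above or all below the Kc pairs (189 genes), the 12 largest differences each way, the 6 X-linked and 3 fourth-chromosome genes with the smallest p, and up to 4 called members of each of 36 lists (52 genes in all). Others are said to be chosen afterwards. The members, lists and alternatives were chosen with earlier results of these data known. Alternatives were DESeq2 1.42.0, voom from limma 3.58.1 with a variance per line, other scalings and filters, no batch block, a replicate block instead, strand ignored, all 26 samples, single batches, and samples left out. Figures were drawn with matplotlib 3.10.9.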

Additional observations from a re-analysis of the deposited data

Results flagged for a closer look

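The *jasper* RNAi response differed between the lines by edgeR's test of the difference itself in 142 genes lower and 61 genes higher in S2 cells, of which 27 and 4 were X-linked. Single samples stood apart within their group in 15 of 212 groups of 4 looked at; chance alone marks about 1 group in 20. Kc *jasper* replicate 4 was such a sample for its share of 2.75% over S2-restricted genes, for *lovit* (10.67 CPM), *CG31601* (3.518 CPM) and *Syx4* (3.275 CPM). Kc control replicate 4 stood apart for *CG31601* (0.9856 CPM), *CG42402* (6.529 CPM) and *CR14033* (5.913 CPM), and Kc control replicate 1 for *CG10738* (38.32 CPM). In S2 cells the *jasper* replicate 8 did so for *KCNQ* (0.3161 CPM) and *by* (23.96 CPM), control replicate 4 for *CR14033* (12.02 CPM) and *LanB2* (458.9 CPM), control replicate 5 for *Abca3* (103.0 CPM), and control replicate 8 for *CR42490* (28.47 CPM) and *CG8301* (1.017 CPM).

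Reads opposite to *Jasper*, which no comparison above uses, were at least 132 CPM in S2 cells upon *jasper* RNAi, against at most 10.5 CPM in control cells, and at least 18.6 CPM in Kc cells upon *jasper* RNAi, against at most 1.32 CPM in control cells. S2 *jasper* replicates 4 and 8 had 1160 and 1240 CPM, and Kc *jasper* replicates 1 and 3 had 3660 and 376 CPM. The samples high on the strand of *Jasper* had less, with 132 and 259 CPM in S2 replicates 5 and 9 and 18.6 and 31.8 CPM in Kc replicates 2 and 4.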

How the results depend on the processing

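None of the 50 called genes named by the rule, nor the median over X genes, changed sign under any alternative run. Counts are given as lower, higher, lower on the X and higher on the X, against 142, 61, 27 and 4. They were 255, 110, 57 and 7 with DESeq2, 405, 176, 75 and 14 with no filter on low counts, 237, 105, 55 and 5 with all 26 samples, and 66, 19, 8 and 0 with no batch block. Batch 1 alone gave 8, 3, 0 and 0 and batch 2 alone 10, 0, 0 and 0. All 142 lower and 61 higher genes kept their direction in each batch. They had been called on both batches together, so that this is no separate evidence for them. Without Kc *jasper* replicates 2 and 4 the counts were 251, 145, 70 and 5; without these and S2 *jasper* replicates 5 and 9 only 1 X gene was higher. That count was 2 with TMM from autosomal genes, 2 with counts without regard to strand, and 1 without Kc *jasper* replicate 4 at an average log2 CPM of at least 2, chosen after seeing the data. Leaving out 1 sample gave 94 to 202 lower, 27 to 101 higher, 13 to 39 lower X and 1 to 6 higher X genes. The X median was -0.13 with TMM from autosomal genes, and with this scaling 142 of the lower and 43 of the 61 higher genes were also called. Replicate numbers did not clearly pair samples: deviations of same-numbered samples within a batch had r of 0.134, 0.0307, -0.0184 and 0.293. With the replicate block in place of batch, 189 genes were lower (129 shared) and 71 higher (48 shared).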

Other observations

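Autosomal genes close to the centromere were noticed after the values were seen. Of 69 autosomal genes tested within 2 Mb of the centromeric end of an arm, 12 (17.4%) had a lower response in S2 cells and none a higher one, and the median difference was -0.23. In the other bins of distance between 0.8% and 2.55% were lower. Most of the 69 genes were on 2L, where 9 of 50 were lower, against 2 of 10 on 2R and 1 of 9 on 3L. The 12 were also lower without Kc *jasper* replicate 4. On 2L they were *CG2201*, *Ac3*, *lncRNA:CR45334*, *CG31601*, *CG42748*, *CG3635*, *Marf1*, *CG40006* and *Cht10*, on 2R *lncRNA:CR41257* and *lncRNA:CR44043*, and on 3L *CG41284*. *Ac3*, which encodes an adenylate cyclase, differed by -1.62, with -0.53 in S2 and 1.08 in Kc cells (adjusted p = 4.7e-04 in edgeR's quasi-likelihood test). *CG40006*, a gene for a scavenger receptor of the CD36 family, had 4.37 to 10.2 CPM in S2 cells upon *jasper* RNAi against 23.8 to 32.2 CPM in control cells, and 35.4 to 71.3 CPM in Kc cells upon *jasper* RNAi against 42.3 to 73.6 CPM in control cells, with a difference of -1.89 (adjusted p = 1.7e-04). None of 43 X genes within 2 Mb of that end was called. These are counts over neighbouring genes, which are not independent, and no test was made of them.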
